A study of Sus scrofa with 30 samples.

Results

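The genes of fatty acid synthesis were followed in the liver of growing pigs that differed in birth weight and in feeding. A list of 7 genes was taken by human protein identifier from the authors' table of 19864 rows: ACLY, ACACA, FASN, ME1, SCD, SREBF1 and THRSP. Of these, 4 were found under their identifiers: FASN (ENSP00000304592), SCD (ENSP00000359380), ME1 (ENSP00000358719) and THRSP (ENSP00000281030). ACLY, ACACA and SREBF1 were not analysed here. FASN and SCD were bright on every array. The rows of ME1 and THRSP rested mostly on probes that were not well above background.

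Fatty acid synthesis turns surplus carbon into fat in the cytosol. ATP citrate lyase (ACLY) releases acetyl-CoA from citrate, acetyl-CoA carboxylase (ACACA) makes malonyl-CoA from it, and fatty acid synthase (FASN) joins these units into palmitate with NADPH that malic enzyme (ME1) helps to supply. Stearoyl-CoA desaturase (SCD) then places a double bond in the saturated chain. The transcription factor SREBP-1 (SREBF1) and the small nuclear protein Spot 14 (THRSP) are known as regulators that respond to feeding and insulin. In pigs, adipose tissue rather than liver is known as the main site of this synthesis.

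Total RNA from the liver of 30 adolescent female pigs was hybridised to 1-colour Agilent arrays, 1 pig per array and 3 pigs in each of 10 groups. The question, as the series gives it, was how restriction and refeeding act on the liver in pigs of low and of normal birth weight. Piglets that weighed 1.4 to 1.6 kg at birth (N, normal) or 0.8 to 1.1 kg (U, low) were suckled until weaning on day 28 and then housed singly with free access to feed. At T1, before restriction, the groups were N and U. From then on, restricted pigs (NR, UR) were given 50% of the amount eaten freely, for 3 weeks, of a diet of 13.6 MJ of metabolisable energy per kg, while control pigs (NK, UK) were not restricted. T2 closed the restriction. T3 followed 5 weeks in which all 4 groups ate a diet of 14.1 MJ per kg freely, so the NK, NR, UK and UR groups of T3 differ by past restriction, not by current feeding. The days of age in the sample labels (76, 97 and 103) and in the series text (75, 98 and 131) disagree, so the time points are called T1 to T3. The labels place piglets of both birth weights in a litter, without giving the litter of any pig. The genotype of the pigs is not given in the sources used here.

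Each of these 4 rows matched the median of 3 neighbouring probes, as worked out from the scanner values, since neither the table nor the scanner files name the probes' genes. The probes were 60 bases long. The last 30 bases of those behind FASN, SCD and THRSP are shown 5′ to 3′, as the array's design gives them. They were not aligned to any transcript. By signal, the 3 probes taken for FASN and for SCD rose and fell together, and those for THRSP did not. Capitals mark AATAAA, the usual polyadenylation signal.
FASN PigEx0054945: ttttacacgaacctggggaaaaccctgtct
FASN PigEx0054946: gtcgcggccttgaaatttactgtcattgtc
FASN PigEx0054947: ggcccgggtcccatgaagcccgcggcgagc
SCD PigEx0001515: tgtttgttcatAATAAAagggaagtgaatc
SCD PigEx0001516: tagttatttgtggcctaagaataattttgg
SCD PigEx0001517: atacacaggataccttttccttgattgggt
THRSP PigEx0052729: tgagcgcatctgtggacttggctgcaggct
THRSP PigEx0052730: acgatgaggacccagcggtgcatcagcccc
THRSP PigEx0052731: gacggggcaggtcctgtaggtcttcgactc

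Over the whole probes, GC content was 45.0%, 51.7% and 81.7% in the FASN probes and 35%, 35% and 40.0% in the SCD probes, against a median of 45.0% over all probes. Only 0.429% of the probes on the array held 80% GC or more, and PigEx0054947 was among them. Of the 12 probes behind the 4 rows, 1 SCD probe, PigEx0001515, held AATAAA and none held TTTATT, its reverse complement. Over 60900 probes, 4.79% held AATAAA and 2.65% held TTTATT. A match of 6 letters is a description of the probe and no evidence of a site.

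The 3 FASN probes were well above background on 30 of 30 arrays, and so were the 3 SCD probes. Between pairs of probes of a row, the lowest correlation over the 30 arrays was 0.98 for FASN and 0.97 for SCD. The SCD row therefore rested on 3 probes that rose and fell together. For FASN, PigEx0054944 matched by value as well as PigEx0054947, which was taken because it correlated with the others. The agreement of PigEx0054947 is thus no evidence about the row. PigEx0054945 and PigEx0054946, which belong to either match, correlated at 0.996. On 1 array, NK_T3 replicate 1, the ratio of probes departed furthest from its usual value in all 3 pairs of SCD probes. The same held in 2 of 3 pairs of FASN probes, both with PigEx0054947. For PigEx0054945 and PigEx0054946 the farthest array was UK_T3 replicate 3. On NK_T3 replicate 1 the log2 ratio of PigEx0001515 to PigEx0001517 was -1.65, against -0.28 to 0.34 on the other arrays. That of PigEx0054945 to PigEx0054947 was 1.01 on NK_T3 replicate 1, against 1.39 to 2.18. That array was also the only one of its scan day.

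The ME1 and THRSP rows were of another kind. ME1 probes PigEx0009608, PigEx0009609 and PigEx0009610 were well above background on 10, 0 and 1 of 30 arrays. Table intensities of ME1, which makes NADPH from malate, lay between 2.7 and 22.2, where the lowest value of the whole table was 2.1. The highest, 22.2, was NK_T3 replicate 1, and every other array lay at 6.3 or below. Of the probes taken for THRSP, PigEx0052729 was well above background on 30 of 30 arrays, PigEx0052730 on 1 and PigEx0052731 on 6. Since a median of 3 takes the middle probe, the THRSP row followed the dim probes and lay between 3.3 and 105.8. No fold change is given for either row.

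**Figure D1:**
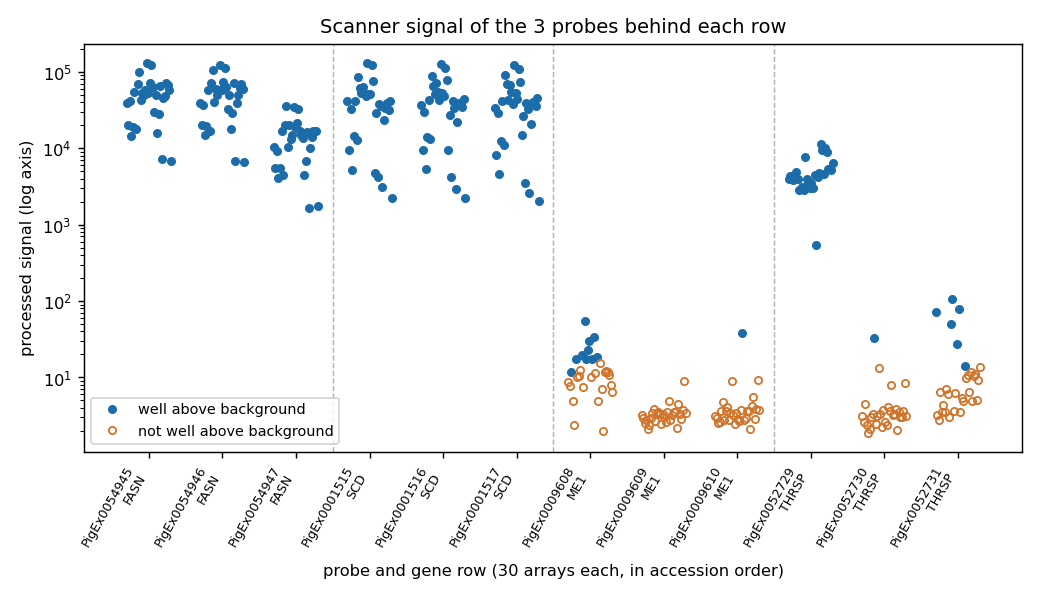
Processed scanner signal (log axis) of the 12 probes behind the FASN, SCD, ME1 and THRSP rows, 1 point per array, filled where the scanner software called it well above background. All 30 arrays are filled for the 3 FASN probes, the 3 SCD probes and PigEx0052729, while the ME1 probes and the other THRSP probes are mostly open.

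Between 53.6% and 74.3% of probes were well above background on an array, the 75th percentile of the signal ran from 304 to 668, and no spot was saturated. The 30 arrays lay on 6 slides and were scanned on 4 days. The columns of the table had been normalised in 4 separate sets (T1, NK and NR at T2, UK and UR at T2, and T3), so intensities are compared within a set only. Hepatocyte, adipocyte, blood and stromal markers could not be looked up, because the table rows and probes carry no gene names that the tables used here resolve, so the share of other cell types, such as adipocytes, was not tested. In bulk liver, fewer cells that express a gene and less RNA per cell cannot be told apart.

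FASN, the enzyme that builds palmitate, varied widely among the arrays of a group, each from a different pig. At T1 its intensity was 19221, 35614 and 38674 in the 3 N pigs. In the 3 U pigs it was 15617, 20147.5 and 54013, so U held both the lowest and the highest value and the groups overlapped.

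At T2, FASN was at 18245, 72576.5 and 100271 in the NK pigs and at 45341, 59384 and 36449 in the NR pigs. All 3 restricted pigs fell inside the range of their controls, which spanned 5.50-fold. In pigs of low birth weight, FASN was at 60257, 125571 and 43717 in UK and at 88055, 121614 and 55718 in UR. The restricted pigs again lay inside the range of the controls, which was 2.87-fold wide.

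At T3, FASN was at 60359.7, 51809 and 21449 in NK and at 20613, 54076 and 11194.5 in NR. It was at 32895, 38308 and 79061 in UK and at 62588, 53342 and 8641 in UR. The lowest value, 8641 in UR, and the highest, 79061 in UK, lay 9.15-fold apart, and the 4 groups overlapped. Replicate 3 was the lowest pig of NK, NR and UR and the highest of UK. Those 4 arrays were the ones on slide 6, which was scanned on a day of its own.

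SCD, which makes oleate from stearate, spread more than FASN. At T1 its intensity was 8876, 29024 and 36032 in N and 5550.1, 14906 and 41134 in U. As for FASN, both extremes belonged to U.

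At T2, SCD was at 14265, 89689.6 and 66678 in NK and at 57846, 73642 and 39865 in NR. It was at 45462, 130872 and 42876 in UK and at 60302, 122763.5 and 68252 in UR. In both birth weights all restricted pigs lay inside the range of the controls, and NK replicate 1 was far below the other NK pigs in SCD as in FASN.

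At T3, SCD was at 16601, 28272 and 5552 in NK and at 28441 and 26897 in NR, with the third NR pig at 12.23 on the log2 scale, just below the lowest NK pig. It was at 18705, 30141 and 53020.1 in UK and at 30827, 38959.9 and 2906 in UR. The slide 6 arrays again held the lowest pig of NK, NR and UR and the highest of UK, and the set spanned 18.2-fold.

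**Figure D2:**
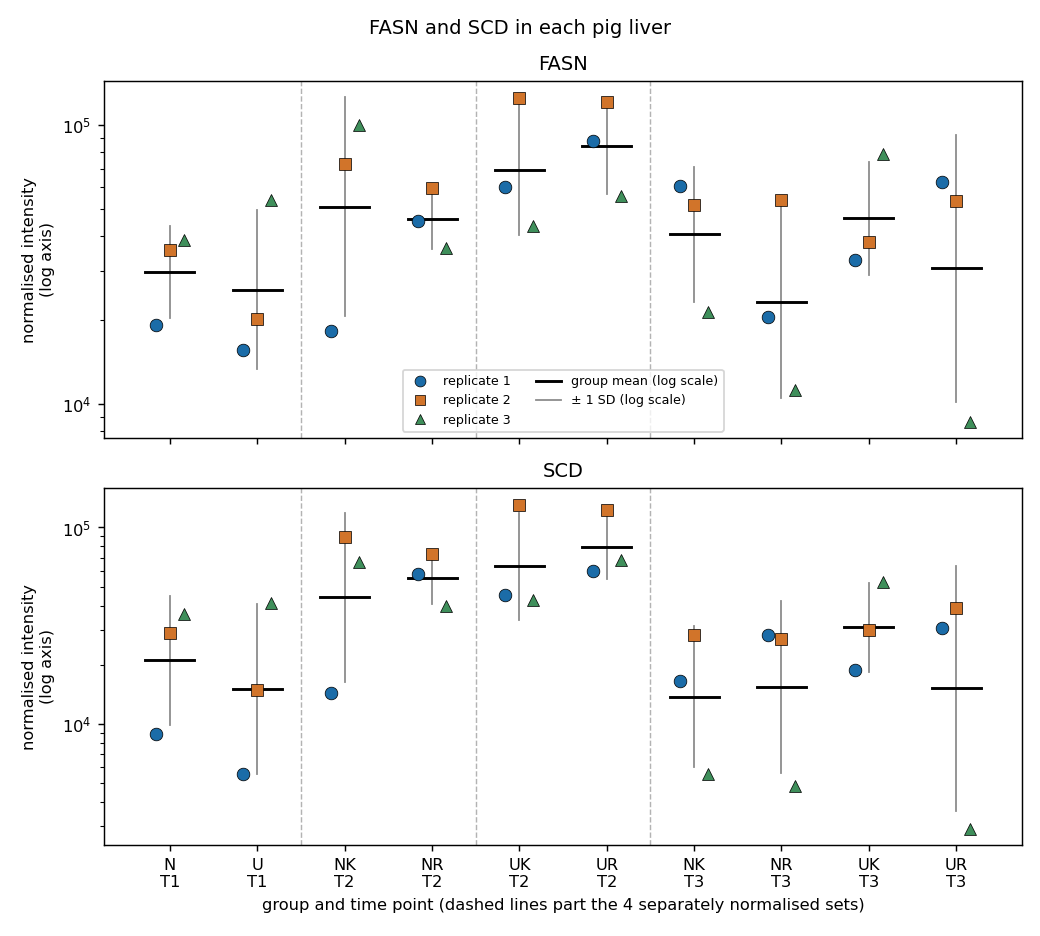
Normalised intensity of FASN and SCD (log axis) in each pig by group and time point, with symbols for the replicate number, a bar at the group mean and a line of 1 SD on either side, both on the log2 scale. Groups of a set overlap for both genes, and the T3 symbols of replicate 3 are the lowest of NK, NR and UR and the highest of UK.

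Before restriction, the question was whether low birth weight had left a difference. Of the 4 genes present, limma with Benjamini-Hochberg adjustment called 0, in a comparison where it called 0% of 19864 rows (568 rows had an unadjusted p under 0.05). U minus N was -0.21 for FASN on the log2 scale (SE 0.55, 95% interval -1.58 to 1.15), a ratio of 0.863. The difference was -0.48 for SCD (SE 0.89, interval -2.72 to 1.75), a ratio of 0.716, and limma's adjusted p was 1 for both. Higher and lower U pigs were both seen, and the sign turned to 0.15 for FASN and 0.24 for SCD without U_T1 replicate 1. Within slide 1, with 2 pigs a group, U minus N was -0.56 for FASN and -0.82 for SCD. Within slide 2, with 1 pig a group, it was 0.48 and 0.19. Of the rows of the 4 genes, 1 did not overlap between U and N, as did not 5.78% of all rows: ME1, with intensities of 2.7 in all 3 N pigs and of 2.8, 2.8 and 4.3 in U, none far from the lowest value of the table.

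At the end of restriction, neither gene differed detectably between restricted and control pigs. For normal birth weight, where 0% of rows were called (1445 had an unadjusted p under 0.05), 0 of the 4 genes passed. NR minus NK was -0.15 for FASN (SE 0.61, interval -1.49 to 1.20; adjusted p by limma 0.973). It was 0.33 for SCD (SE 0.67, interval -1.15 to 1.81; adjusted p by limma 0.925). The intervals run as ratios from 0.356 to 2.30 for FASN and from 0.451 to 3.51 for SCD, so changes of 2-fold in either direction remain inside them. None of the 4 rows was free of overlap between NR and NK, against 11.3% of all rows. Without NK_T2 replicate 1, the pig with low FASN and SCD, the differences became -0.89 for FASN and -0.48 for SCD. Within slide 5, with 1 NR and 2 NK pigs, they were -0.52 and -0.07.

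For low birth weight at T2, 0% of rows and 0 of the 4 genes were called by limma (828 rows had an unadjusted p under 0.05). UR minus UK was 0.28 for FASN (SE 0.61, interval -1.06 to 1.63) and 0.33 for SCD (SE 0.67, interval -1.15 to 1.81), with adjusted p of 1 by limma. None of the 4 rows was free of overlap, against 9.10% of all rows. Within slide 1 the differences were 1.01 for FASN and 1.43 for SCD, and within slide 2 they were -0.51 and -1.12, with 1 pig a group in each. The sign thus turned from slide to slide, for both genes together.

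Whether restriction acted differently by birth weight at T2 was tested as the difference of the 2 restriction effects, which keeps each effect inside its own normalised set. It was 0.43 for FASN (interval -1.47 to 2.33) and -0.0024 for SCD (interval -2.09 to 2.09), with limma's adjusted p of 1 for both and 0% of rows called (675 with an unadjusted p under 0.05). Averaged over both birth weights, restriction gave 0.07 for FASN (interval -0.88 to 1.02) and 0.33 for SCD (interval -0.72 to 1.38). Again 0% of rows were called, against 1674 with an unadjusted p under 0.05. The averaged effect had the narrowest intervals of all, from 0.543 to 2.03 as a ratio for FASN and from 0.609 to 2.60 for SCD.

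After refeeding, the mean of FASN was lower in pigs that had been restricted, but by less than the spread among the arrays of a group. NR minus NK was -0.81 (SE 0.81, interval -2.60 to 0.98; adjusted p by limma 0.912), a ratio of 0.571. UR minus UK was -0.60 (SE 0.81, interval -2.39 to 1.20; adjusted p by limma 1), a ratio of 0.662. Averaged over birth weights the difference was -0.70 (SE 0.57, interval -1.97 to 0.57). That average had the lowest unadjusted p of the 22 tests of FASN and SCD, 0.246 by limma, with an adjusted p of 0.997. The rows of all 4 genes, that of THRSP through its dim probes, overlapped between NR and NK, where 8.18% of rows did not, and between UR and UK, where 5.62% did not. In UR minus UK the sign rested on 1 pig: without UR_T3 replicate 3, the value for FASN was 0.32. Within slide 4 the difference was 0.48 and within slide 6 it was -3.19, each with 1 pig a group. For NR minus NK only slide 6 held both groups, with a difference of -0.94.

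SCD did not follow a single direction at T3. NR minus NK was 0.17 (SE 1.05, interval -2.16 to 2.49; adjusted p by limma 0.985) and UR minus UK was -1.03 (SE 1.05, interval -3.36 to 1.29; adjusted p by limma 1). Averaged over birth weights, past restriction gave -0.43 (interval -2.08 to 1.21). Without UR_T3 replicate 3, UR minus UK became 0.16 and the average 0.16. Within slide 4, UR minus UK was 0.37 for SCD and within slide 6 it was -4.19, and NR minus NK was -0.20 within slide 6. Limma called 0% of rows in these 3 comparisons, with 915, 379 and 525 rows at an unadjusted p under 0.05, and 0 of the 4 genes in each.

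Birth weight at T3 was compared in control and in restricted pigs, with 0% of rows and 0 of the 4 genes called by limma in either (683 and 415 rows had an unadjusted p under 0.05). UK minus NK was 0.19 for FASN (interval -1.60 to 1.98) and 1.17 for SCD (SE 1.05, interval -1.15 to 3.50), the largest difference of SCD between groups, a ratio of 2.26. That value for SCD was 0.52 without NK_T3 replicate 3 and 0.29 with array weights. Limma's adjusted p was 1 for both genes, and the rows of all 4 genes overlapped between UK and NK, where 7.46% of rows did not. Within slide 4, with 1 UK and 2 NK pigs, UK minus NK was -0.55 for FASN and 0.48 for SCD. Within slide 6, with 1 pig a group, it was 1.88 and 3.26. Among restricted pigs, UR minus NR was 0.40 for FASN (interval -1.39 to 2.20) and -0.03 for SCD (interval -2.35 to 2.30), with limma's adjusted p of 1. Without UR_T3 replicate 3 these became 1.32 and 1.17, and within slide 6 they were -0.37 and -0.73. ME1 did not overlap between UR (4.8, 6.3 and 4.0) and NR (3.9, 3.9 and 3.6), as did not 6.97% of rows, with none of its probes well above background in those pigs.

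The difference of the 2 restriction effects at T3 was 0.21 for FASN (interval -2.32 to 2.75) and -1.20 for SCD (interval -4.49 to 2.09). Limma called 0% of rows (598 with an unadjusted p under 0.05), and its adjusted p was 0.999 for both genes. The SCD value was -0.0074 without UR_T3 replicate 3 and -2.04 without NR_T3 replicate 3. The 11 comparisons share groups, so their values are not independent of each other. Over all 11, none of the 4 table rows reached an unadjusted p under 0.05 in limma.

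**Figure D3:**
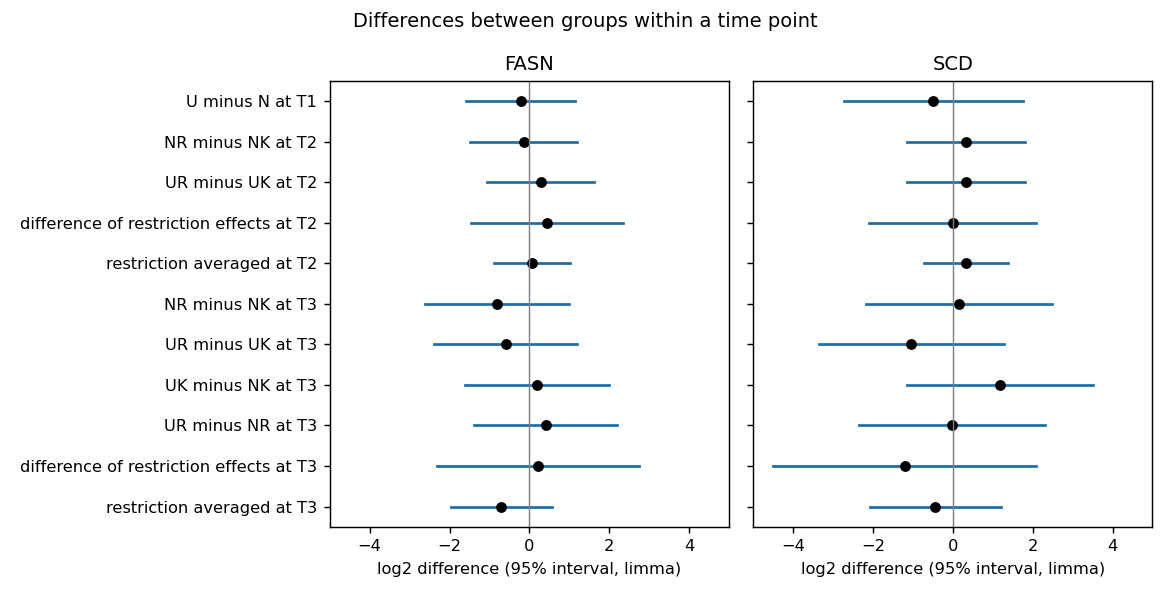
Log2 differences of FASN and SCD between groups within a time point, as points with 95% intervals from limma, for the 11 comparisons. Every interval spans 0, and each T3 interval is wider than that of the like comparison at T2, where there is one.

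The 1 bright probe among those taken for THRSP, PigEx0052729, was followed as log2 processed signal minus the array's 75th percentile. A median of 3 does not depend on how bright its highest probe is. The match of the row therefore does not show that PigEx0052729 measures THRSP. Over the 30 arrays it correlated with PigEx0052730 at 0.03 and with PigEx0052731 at 0.11. PigEx0052729 is thus described as a probe only, and whether it follows the gene was not tested. Before restriction it was 3.14, 3.25 and 3.32 in N and 3.35, 3.42 and 3.48 in U, so every U pig lay above every N pig, and 5.54% of all probes likewise did not overlap. The difference was 0.18 (SE 0.17, unadjusted p 0.318 and adjusted p 1 in limma over all probes). At T2 it was 3.38, 2.55 and 2.60 in NK, 3.04, 2.97 and 3.58 in NR, 3.30, 3.02 and 2.66 in UK and 3.54, 3.04 and 3.25 in UR. At T3 it was 0.74, 3.21 and 3.62 in NK, 4.07, 3.90 and 3.91 in NR, 4.07, 3.79 and 3.80 in UK and 3.18, 3.26 and 4.05 in UR. All NR pigs and all UK pigs of T3 lay above all NK pigs. Of all probes, 11% did not overlap between NR and NK and 6.92% between UK and NK. In the other 4 pairs of groups PigEx0052729 overlapped, where 11.5% (NR and NK at T2), 8.96% (UR and UK at T2), 4.76% (UR and UK at T3) and 5.69% (UR and NR at T3) of probes did not. NK_T3 replicate 1 stood far below every other array. It is the array on which the SCD probes, and FASN probe PigEx0054947, differed from their usual ratio. In limma over all probes, NR minus NK at T3 was 1.44 (SE 0.60, unadjusted p 0.0355, adjusted p 0.696) and UK minus NK was 1.36 (SE 0.60, unadjusted p 0.0440, adjusted p 0.933), and 0 probes were called in either (2668 and 1637 had an unadjusted p under 0.05). Without NK_T3 replicate 1 the mean differences were 0.55 and 0.47. The values of the dim probes of the THRSP row had the other sign in both comparisons, over all arrays. At T3, PigEx0052730 was well above background on no array and PigEx0052731 only on NK_T3 replicate 2. No direction of the gene is read from these background values. NR minus NK and UK minus NK were -1.04 and -0.98 for PigEx0052730 and -0.32 and -0.56 for PigEx0052731. In the 11 comparisons limma gave PigEx0052729 no adjusted p below 0.595.

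The spread among the arrays of a group, 1 pig each, set FASN and SCD apart from most rows of the table. It holds differences of slide and scan day as well as of pigs. At T1 the slide 2 array was the highest of its group for both genes, in N and in U. NK_T2 replicate 1, the lowest of its group for both, was its only array on slide 1 and of scan 1. At T3 the slide 6 arrays were the extremes named above. How much of the spread comes from pigs was not tested. The pooled SD within groups on the log2 scale was 0.77, 0.83 and 1.11 for FASN at T1, T2 and T3. For SCD it was 1.28, 0.91 and 1.45. Over all 10 groups it was 0.94 for FASN, larger than in 96.6% of the 19864 rows, and 1.23 for SCD, larger than in 99.2%, against a median of 0.42 over all rows. The same was counted among the 3095 rows whose mean, taken on the log2 scale, corresponded to an intensity of 1000 or more. There 40 rows varied more than FASN and 19 more than SCD, and the median SD was 0.30. These ranks are a description and were not tested. Of the total variance of FASN within a set, differences between group means made up 2.77% at T1 and 15.3% at T3. In the normal and low birth weight sets of T2 they made up 0.859% and 6.10%. For SCD the shares were 5.07% at T1, 3.56% and 6.74% at T2, and 13.5% at T3. Group means of few pigs take up some variance even where groups do not differ, so these shares are no measure of an effect.

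FASN and SCD were largely high and low in the same pigs. The clearest exception was NR_T3 replicate 1, with FASN at 20613 but SCD at 28441, the highest of its group. With each set's mean subtracted, Pearson's r between their log2 intensities was 0.88 over the 30 arrays (Spearman's rho 0.81, permutation p = 1e-05 for each, the smallest that the permutations can give, 3.33e-05 after Benjamini-Hochberg adjustment over 10 relations). Without the 2 arrays farthest from the median of FASN, r was 0.82. With group means subtracted it was 0.92 (rho 0.89), so the relation lay among the arrays of a group. No correlation was taken within a slide, so pigs and slides were not told apart in it. Within sets r was 0.96 at T1 (rho 1, exact permutation p = 0.00278 for each, adjusted 0.00397 and 0.00463) and 0.91 in the normal birth weight set of T2 (rho 0.83, exact permutation p 0.0306 and 0.0583, adjusted 0.0382 and 0.0648). It was 0.89 in the low birth weight set of T2 (rho 0.83, exact permutation p 0.0361 and 0.0583, adjusted 0.0401 and 0.0648), where r fell to 0.50 without the 2 farthest arrays. In that set the relation rests on those arrays. At T3 it was 0.86 (rho 0.69, permutation p 8.6e-04 and 0.0168, adjusted 0.00143 and 0.024), and 0.61 without the 2 farthest.

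The relation was also taken within scan days. Over the 12 arrays of scan 1, r was 0.97 (rho 0.97, permutation p 1.4e-04 and 4e-05, adjusted 2.8e-04 and 1e-04). Over the 13 arrays of scan 2, r was 0.54 (rho 0.43, permutation p 0.0863 and 0.169, adjusted likewise 0.0863 and 0.169), so there the relation did not pass. The other scan days held too few arrays for a value. From the scanner values in place of the table r was 0.89, and without NK_T3 replicate 1 it was 0.90. Array measures were compared with both genes over the 30 arrays after set means were subtracted from each, as descriptions. The log2 of the 75th percentile of an array's signal correlated with FASN at 0.18 and with SCD at 0.40. The share of probes well above background correlated with them at -0.30 and -0.12.

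**Figure D4:**
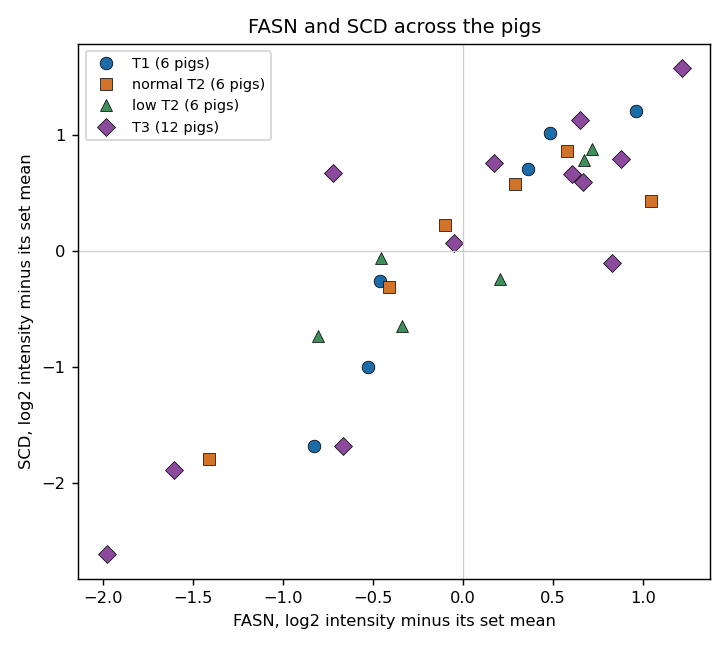
Log2 intensity of SCD against that of FASN in each of the 30 pigs, each with the mean of its normalised set subtracted, with a symbol for each set. The pigs lowest in FASN are also low in SCD, with 1 T3 pig low in FASN alone, and r over the 30 arrays is 0.88.

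Among all 19863 other rows, SCD had the pattern most like that of FASN over the 30 arrays with set means subtracted. For SCD, FASN came second, after the row ENSP00000353804, whose r was 0.91 with SCD and 0.82 with FASN. Next after these for FASN was ENSP00000307241, with r 0.82. The table given pairs neither identifier with a gene name. ME1 and THRSP did not share the pattern: their rows correlated with FASN at 0.35 (place 2991) and 0.06 (place 9306), values that rest on dim probes.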

How the data were processed

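Liver RNA of 30 pigs was measured on 1-colour Agilent arrays. Per the file headers, the scanner files come from Feature Extraction 10.5.1.1. The table deposited by the authors holds an intensity for each of 19864 rows, with no statement of how it was made. By value, its rows matched medians of neighbouring probes after quantile normalisation of the processed signal in 4 sets. For the 4 genes the root mean square difference was 0.0123 or less on the log2 scale at T1 and T2 and 0.0484 or less at T3, so T3 is matched less exactly. By value, the third FASN probe could also be PigEx0054944, which did not correlate with the others and was not taken. The 3 N_T1 columns held each other's scanner files. They are of the same group, so no comparison between groups changes, and the slide was taken from the matched file.

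The log2 of the deposited intensity was fitted in limma 3.58.1 (R 4.3.3), separately for each time point, with a mean per group, and p-values were adjusted by Benjamini-Hochberg over all rows. A row was called at an adjusted p under 0.05. Correlations used permutation tests in scipy 1.17.1 (Python 3.11.15, numpy 2.4.6, pandas 2.3.3). Probe values are log2 processed signal minus the array's 75th percentile. The fit was also run on simulated arrays with independent noise, a simpler setting than the arrays here, and no result rests on that run. With 3 pigs a group, the number of arrays limits the precision.

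The 7 genes, the comparisons and the lists were chosen with earlier results of these data known. All genes present are named, with the rows most like FASN and SCD, at most 2 by identifier. Planned lists of other pathway genes and cell type markers were not measured, because no table used here pairs probes with genes. Alternatives were other samples in the fit, slide, scan day or replicate number as a block, array weights, other normalisations, a filter on low rows, scanner values and leaving out each array. Leaving out NK_T3 replicate 1 for PigEx0052729 was chosen after seeing the data. The labels do not say that a replicate number marks a litter. Same-numbered arrays correlated above 0.1 in all pairs in 6 of 13 pairs of groups within a time point. At T3 the replicate 3 arrays were those of slide 6, scanned on a day of its own. Their r was 0.52 to 0.66, against 0.08 to 0.37 for replicates 1 and 2 of T3. For replicate 3 of T3, replicate number cannot be told apart from slide and scan day.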

Additional observations from a re-analysis of the deposited data

How the results depend on the processing

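The 4 genes were called in 0 of 205 other fits with limma, 115 with another setting and 90 without an array, and the lowest adjusted p was 0.338 for any of them (THRSP) and 0.555 for FASN or SCD. With the replicate block, limma called 0 of the 4 genes in every comparison, so that block changed no call. NR minus NK at T3 gave -0.81 for FASN with it (adjusted p 0.665 by limma). Over all rows, at most 3 were called in another fit.

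Of 230 differences of FASN and SCD under other settings, 219 kept their sign. With slide as a block, FASN turned to 0.18 in NR minus NK at T2, -0.12 in the difference of restriction effects at T2, -0.23 in UR minus NR at T3 and -0.58 in the difference of restriction effects at T3. With array weights, SCD turned to 0.19 in the difference of effects at T2 and 0.10 in the average at T3, and FASN to -0.082 in the average at T2, 0.19 in UR minus UK at T3 and -0.22 in UK minus NK at T3. Quantile normalisation over the time point gave -0.0060 for FASN in UK minus NK at T3, and normexp scanner values gave 0.054 for SCD in the difference of effects at T2. The cause was not tested.

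Without an array, 37 of 180 differences turned. FASN ranged from -0.75 to 0.15 in U minus N at T1, from -0.89 to 0.34 in NR minus NK at T2, from -0.047 to 0.71 in UR minus UK at T2, from -0.058 to 1.17 in the difference of effects at T2, and from -0.30 to 0.31 in the average at T2. At T3 it ranged from -1.11 to 0.32 in UR minus UK, from -0.27 to 0.48 in UK minus NK, from -0.12 to 1.32 in UR minus NR and from -0.31 to 1.13 in the difference of effects. SCD ranged from -1.21 to 0.24 in U minus N at T1, from -0.48 to 0.84 in NR minus NK at T2, from -0.52 to 0.81 in the difference of effects at T2 and from -0.077 to 0.59 in the average at T2. At T3 it ranged from -0.49 to 1.01 in NR minus NK, from -1.71 to 0.16 in UR minus UK, from -0.87 to 1.17 in UR minus NR and from -0.77 to 0.16 in the average. The other SCD ranges kept their sign: 0.017 to 0.85 in UR minus UK at T2, 0.52 to 1.69 in UK minus NK at T3 and -2.04 to -0.0074 in the difference of effects at T3. FASN in NR minus NK at T3 stayed below 0, from -1.42 to -0.28, and in the average at T3 from -1.01 to -0.25.

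Scan day as a block could not be fitted at T1, where all arrays share a scan. The alternatives for other genes of the pathway were not run, since the probes have no gene names.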
